A study of Mus musculus with 6 samples.

Results

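The genes described here are Myc and 34 genes of ribosome biogenesis and of the polyamine, methionine and pyrimidine synthesis that accompanies it. They were taken by symbol from the deposited table of raw RNA-seq counts, in which all 35 had a row among 15445 genes, and all 35 passed the filter on low counts that left 12987 genes for testing. The libraries were made from transgenic CD4+ T cells of C57BL/6 mice, taken from the spleen at day 5 of infection with lymphocytic choriomeningitis virus (LCMV). Splenocytes had been sorted by CD4, Thy1.1, a cell surface marker, and CD25, the interleukin-2 receptor alpha chain. The comparison is of 3 CD25-high libraries with 3 CD25-low libraries, which carry the numbers 1, 2 and 3 in each group, and both groups share strain, tissue, infection and day. The labels used here name neither the transgene nor the age of the mice. Whether each library stands for its own mouse is not stated, so the tests speak to the scatter among these 6 libraries, part of which may be technical.

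MYC is a transcription factor that binds DNA with its partner MAX at E-boxes and raises the output of genes for growth. Among its best known targets are the factors that make ribosomes in the nucleolus. There RNA polymerase I transcribes the ribosomal RNA precursor, small nucleolar ribonucleoproteins (snoRNPs) modify and help cut it, and assembly factors build the small and large subunits. In T cells Myc is induced on activation, and signals from the antigen receptor and from interleukin-2 are known to sustain it while the cells divide.

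The members lie on 17 chromosomes. The 4 genes that the paired test called, all read from the plus strand, are annotated in GENCODE M21 (mm10) at chr15:61985391-61990374 (Myc, ENSMUSG00000022346), chr11:72441355-72451768 (Mybbp1a, ENSMUSG00000040463), chr4:148591503-148594993 (Srm, ENSMUSG00000006442) and chr5:31054780-31078479 (Cad, ENSMUSG00000013629). Of the 35 members, 8 (22.9%) hold an annotated snoRNA gene inside them on their own strand, against 1.66% of all tested genes, and these 8 hold 22 such genes. They are Ncl, Gnl3, Nop56, Nop58, Dkc1, Wdr43, Tsr1 and Odc1. Genes that carry the RNA parts of snoRNPs in their introns are known as snoRNA hosts.

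RefSeq promoters (GRCm38.p6, 250 bases before to 50 bases after the annotated start) were found for 28 of the 35 members. Myc, Npm1, Fbl, Rrp12, Bop1, Rrs1 and Srm were the 7 without one. The canonical E-box CACGTG, which reads the same on both strands, stood in the promoters of 6 of the 28 members (21.4%), against 12% of 9055 tested genes and 8.09% of all 27025 genes of the table. The windows that hold it are shown because they carry the sequence that MYC and MAX are known to bind. Each has 30 bases on the gene's strand, with the E-box in capitals.
Mybbp1a, chr11:72441347-72441376, plus strand: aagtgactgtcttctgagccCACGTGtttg
Nop2, chr6:125131811-125131840, plus strand: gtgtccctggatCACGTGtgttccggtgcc
Pes1, chr11:3963965-3963994, plus strand: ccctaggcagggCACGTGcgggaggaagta
Tsr1, chr11:74898092-74898121, plus strand: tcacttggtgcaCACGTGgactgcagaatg
Utp20, chr10:88826765-88826794, minus strand: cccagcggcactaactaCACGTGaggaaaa
Wdr43, chr17:71616220-71616249, plus strand: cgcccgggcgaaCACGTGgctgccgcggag

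The E-box of Nop2 began 60 bases before the start, and the other 5 began between 2 bases (Pes1) and 40 bases (Mybbp1a) after it. The variant E-box CGCGTG, read on either strand as CGCGTG or CACGCG, stood in 8 of the 28 promoters (28.6%), those of Ddx21, Mybbp1a, Nhp2, Nip7, Nolc1, Nop16, Odc1 and Pes1, against 20.4% of tested genes and 10.5% of all genes of the table. Mybbp1a and Cad are shown for the 250 bases before their starts because they are the members with a promoter in the table that passed the paired test given further on. Capitals mark variant E-boxes, of which Mybbp1a has an overlapping pair beginning 115 and 111 bases before the start. These letters, CACGTG included, were not found in the stretch of Cad, which says nothing of sites elsewhere.
Mybbp1a, chr11:72441077-72441326, plus strand: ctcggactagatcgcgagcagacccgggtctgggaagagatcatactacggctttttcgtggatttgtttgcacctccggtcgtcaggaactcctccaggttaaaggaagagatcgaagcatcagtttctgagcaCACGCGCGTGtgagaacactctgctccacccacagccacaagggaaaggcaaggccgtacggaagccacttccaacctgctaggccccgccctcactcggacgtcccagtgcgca
Cad, chr5:31054530-31054779, plus strand: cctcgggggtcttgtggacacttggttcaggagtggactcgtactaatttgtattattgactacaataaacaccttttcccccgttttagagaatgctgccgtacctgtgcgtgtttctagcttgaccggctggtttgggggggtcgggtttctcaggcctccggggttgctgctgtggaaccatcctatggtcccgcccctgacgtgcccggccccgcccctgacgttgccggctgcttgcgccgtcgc

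Values of single libraries are given in the order of their numbers, 1, 2 and 3, throughout. Total counts ranged from 16787233 to 23567066 per library. Il2ra, which encodes CD25 and checks the sort, had 1536, 432 and 666 CPM (library-scaled counts, with edgeR's TMM factors) across the CD25-high libraries, against 20.7, 29.4 and 35.7 CPM across the CD25-low ones. CD25-high library 1 stood highest for the sort marker, and the groups did not overlap. All 10 T cell markers had counts in every library. Of 33 markers of other cells, 16 had no row, among them Ms4a1, Cd8a and the 4 haemoglobin genes listed. The libraries numbered 1 differed from the others in both groups, as the values given with the differences between numbers show.

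Most members were higher in CD25-high cells, but by less than the libraries of a group differed from each other. Sums of myeloid, B cell and plasma cell markers also differed with CD25 within every number, as the values given with the differences between numbers show. The marker genes Itgam and Cd22 carried most of these differences, and the other markers in the sums were mixed in direction. The fitted log2 fold change of CD25-high against CD25-low was above 0 for 31 of 35 members, against 50.8% of all tested genes, and its median was 0.45, against 0.01 over all tested genes. No member passed edgeR's quasi-likelihood test at an adjusted p of 0.05, where 0.154% of tested genes were called higher and 0.501% lower. The smallest adjusted p was 0.281, for Cad. At an unadjusted p under 0.05 there were 2 members, Cad and Srm, both higher, against 4.69% of tested genes higher and 6.39% lower (11.1% in either direction), and DESeq2 and limma voom called 0 members as well. Members had groups that did not overlap in 1 case, Npm3, against 7.41% of tested genes with CD25-high libraries above all CD25-low ones. With the replicate number as a block, which compares libraries of the same number, 4 members passed, all higher in CD25-high cells, Myc, Mybbp1a, Srm and Cad, against 1.73% of tested genes called higher and 2.9% lower (4.63% in either direction).

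**Figure D1:**
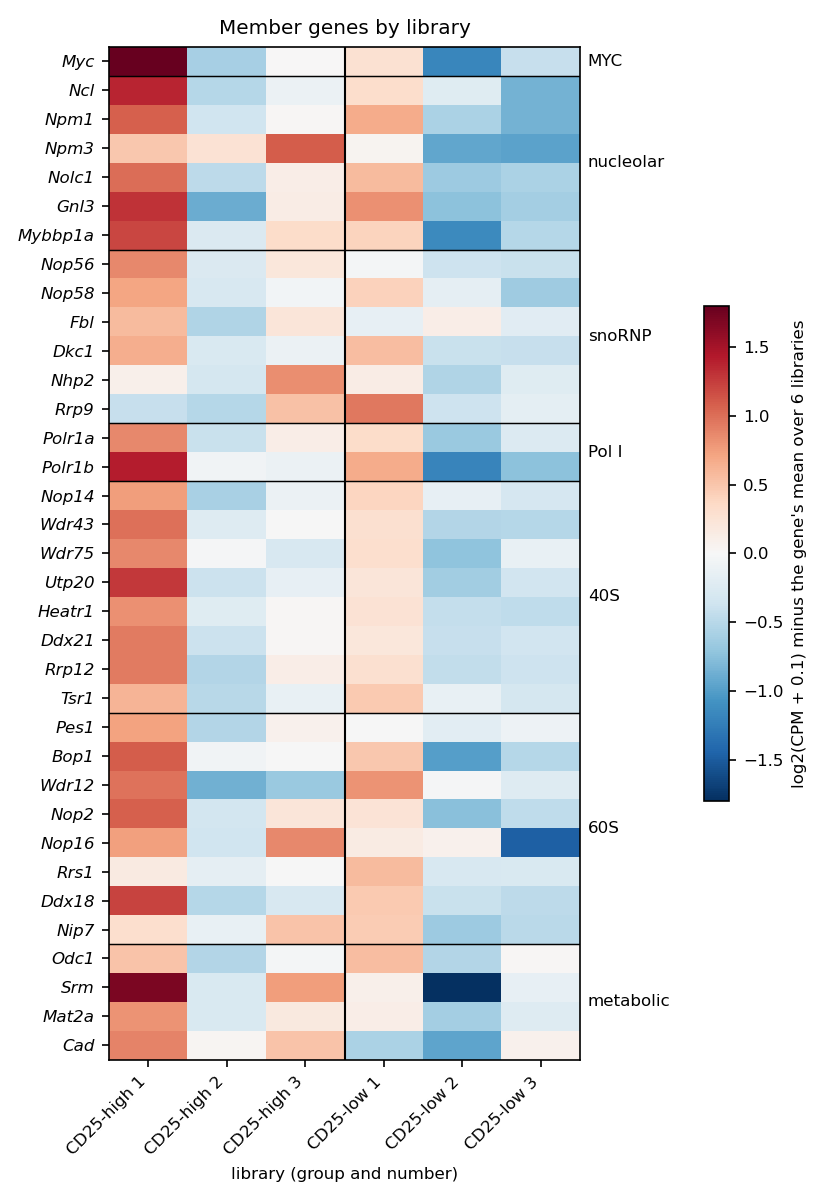
Each row is a member gene and each column a library. Colour gives log2(CPM + 0.1) minus the gene's mean over the 6 libraries, cut at 1.8 either way, and rows are grouped by role. CD25-high library 1 was the highest library for 28 of 35 members, and CD25-low library 1 was above the other CD25-low libraries in most rows.

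Myc had 284, 49.7 and 75.7 CPM across the CD25-high libraries, against 90.6, 33.3 and 56.2 CPM across the CD25-low ones. The groups overlapped, since CD25-low library 1 was above CD25-high libraries 2 and 3. Its log2 fold change of 1.19 ± 0.58 (SE) had an adjusted p of 0.496 by edgeR. With the block it was 0.89 and the adjusted p was 0.0401. Within numbers 1, 2 and 3 the CD25-high library was higher by 1.65, 0.58 and 0.43 on the log2 scale. Much of the mean difference thus stood in CD25-high library 1. Without that library the fold change in the fit by group alone was 0.06 (adjusted p 0.98), and with the block and without the libraries numbered 1 it was 0.50 and Myc lost its call (adjusted p 0.186). Without pair 2 or pair 3 Myc kept it (0.00236 and 0.00369).

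Of the multifunctional nucleolar proteins, all 6 had fold changes above 0, and Mybbp1a alone passed with the block. Mybbp1a encodes a MYB-binding nucleolar protein with a part in ribosomal RNA synthesis. It had 302, 109 and 164 CPM across the CD25-high libraries, against 173, 59.3 and 91.5 CPM across the CD25-low ones. CD25-low library 1 lay above the lowest 2 CD25-high libraries, so the groups overlapped, but the differences within numbers 1, 2 and 3 were nearly alike at 0.80, 0.88 and 0.84 (log2). The log2 fold change was 0.83 ± 0.43 (edgeR adjusted p 0.521). With the block the adjusted p was 0.00562, and it was 0.0231, 0.019 and 0.0174 without pair 1, 2 or 3. The last 3 fits kept 2 libraries per group and shared libraries, so they are no separate evidence. Mybbp1a shares 131 exonic bases with Spns2 on the other strand.

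Ncl, which encodes nucleolin, an abundant RNA-binding protein of the nucleolus, had 6615, 1780 and 2374 CPM across the CD25-high libraries, against 3156, 2182 and 1416 CPM across the CD25-low ones. CD25-high library 2 was below CD25-low library 2, by 0.29 on the log2 scale, while the other numbers differed by 1.07 and 0.75 in the opposite direction. The log2 fold change was 0.67 ± 0.45 (edgeR adjusted p 0.639). Npm1, which encodes nucleophosmin, a histone chaperone and ribosome assembly factor, had 2868, 1066 and 1390 CPM against 2166, 923 and 757 CPM, in the same order of libraries. Its CD25-high library was higher in every number, by 0.40, 0.21 and 0.88 (log2), and its fold change was 0.47 ± 0.43 (adjusted p 0.760). Per kilobase of transcript Npm1 had the highest mean level of the 35 members in both groups and Ncl the next, with either of 2 measures of length. By CPM Ncl was the higher, so this order rests on the annotated lengths. These were 8202 and 10188 bases for Ncl, against 1633 and 2665 bases for Npm1. Ncl shares 272 exonic bases with small RNAs on its own strand. It is 1 of 4 members with such overlap, beside Nop56 (328 bases), Gnl3 (235) and Nop58 (84). Reads of 8 pseudogenes similar to Npm1 cannot always be told from its own, but those with a row had 2.34% of its count.

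The other 3 genes of this role were Nolc1, a chaperone of snoRNPs (log2 fold change 0.45 ± 0.41), Gnl3, the nucleolar GTPase nucleostemin (0.44 ± 0.54), and, far lower, Npm3, a relative of nucleophosmin (1.35 ± 0.75). Npm3 had 1.08, 0.91 and 1.69 CPM across the CD25-high libraries, against 0.77, 0.34 and 0.33 CPM across the CD25-low ones. It was the one member whose groups did not overlap, at a total of 96 reads over the 6 libraries, and its adjusted p was 0.557 (0.451 with the block). Gnl3 was lower in CD25-high library 2 than in CD25-low library 2, by 0.16 on the log2 scale.

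The 6 snoRNP proteins had the smallest median fold change of the roles with more than 1 member, 0.24 (log2), and none passed with or without the block, where the smallest adjusted p were 0.13 and 0.468. Nop56, a core protein of the box C/D snoRNPs that guide methylation of ribosomal RNA, had 157, 72.4 and 100 CPM across the CD25-high libraries, against 84.8, 67.2 and 65.5 CPM across the CD25-low ones. Its CD25-low libraries lay close together, and CD25-high library 2 lay within their range. The log2 fold change of Nop56 was 0.60 ± 0.28. Its partner Nop58 had 506, 253 and 299 against 413, 277 and 199 CPM in the same order, a fold change of 0.25 ± 0.32. Dkc1, the pseudouridine synthase dyskerin of the H/ACA class, had 0.17 ± 0.32, and Nhp2, a small protein of that class, 0.47 ± 0.35. Rrp9, a protein of the snoRNP that directs early cuts of the precursor, had -0.31 ± 0.50, the lowest of the 35, with differences within numbers 1, 2 and 3 of -1.37, -0.14 and 0.70 (log2). Fbl, the methyltransferase fibrillarin, had between 1.23 and 2.78 CPM in the 6 libraries, and its 225 reads stood beside 216 reads of near-identical pseudogene sequence, so its level and its fold change of 0.24 ± 0.59 are uncertain.

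The 2 RNA polymerase I subunits among the members, Polr1a and Polr1b, were higher in the CD25-high library in every number. The other genes listed for the polymerase I machinery did not share this. Of the 14 tested, 3 were higher and 1 was lower in all 3 numbers, with a median log2 fold change of 0.10. Polr1a, the largest subunit, had 117, 48.6 and 69.5 CPM across the CD25-high libraries, against 80.2, 40.2 and 54.0 CPM across the CD25-low ones. CD25-high library 2 was thus below 2 of the CD25-low libraries, although it was above CD25-low library 2. The log2 fold changes were 0.43 ± 0.35 for Polr1a and 0.81 ± 0.55 for Polr1b, another core subunit, with edgeR adjusted p of 0.706 and 0.646. With the block the adjusted p were 0.25 and 0.114.

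All 8 genes of the small-subunit processome and of later small-subunit assembly had fold changes above 0, from 0.02 (Tsr1) to 0.65 (Utp20), with a median of 0.44 (log2), and none passed (smallest edgeR adjusted p 0.607, and 0.094 with the block, both for Wdr43). Utp20 and Heatr1, large scaffold proteins of the processome, had 0.65 ± 0.41 and 0.45 ± 0.31. Wdr43 and Wdr75, which belong to the part of the processome that joins the precursor first, had 0.55 ± 0.34 and 0.40 ± 0.34. Ddx21, an RNA helicase of ribosomal RNA synthesis and processing, had 470, 189 and 250 CPM across the CD25-high libraries, against 284, 185 and 193 CPM across the CD25-low ones. CD25-high library 1 lay apart, and the other 2 CD25-high libraries lay within the CD25-low range, at a fold change of 0.46 ± 0.32. Rrp12, a factor of subunit export, had 0.44 ± 0.39, and Nop14, of the processome, 0.12 ± 0.33. Tsr1, a late assembly factor, had 134, 61.8 and 79.8 against 122, 79.9 and 70.0 CPM in the same order, and was the member with the largest p (0.02 ± 0.31, adjusted p 0.99). Tsr1 shares 1240 exonic bases with Srr on the other strand, so its count is uncertain to that extent.

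Of 8 large-subunit assembly genes, 6 had fold changes above 0 and none passed (smallest edgeR adjusted p 0.549 for Nop2, and 0.098 with the block for Bop1). Pes1, Bop1 and Wdr12 encode the 3 partners of the PeBoW complex, which is needed to mature the large subunit, and did not share a direction. Bop1 had 62.1, 27.7 and 28.8 CPM across the CD25-high libraries, against 40.5, 14.6 and 20.2 CPM across the CD25-low ones, higher within every number, by 0.62, 0.92 and 0.51 (log2). Wdr12 had 64.8, 18.1 and 20.8 against 57.5, 32.4 and 27.9 CPM, lower within numbers 2 and 3 by 0.84 and 0.43. The log2 fold changes were 0.66 ± 0.42 for Bop1, 0.27 ± 0.35 for Pes1 and -0.18 ± 0.47 for Wdr12. Nop2, an RNA methyltransferase, had 0.71 ± 0.38, and was higher within every number. Nop16 (0.76 ± 0.50), the helicase Ddx18 (0.42 ± 0.46) and Nip7 (0.40 ± 0.32) were above 0, and Rrs1, which helps bring in the RNA and proteins of an early large-subunit particle, was near it (-0.05 ± 0.29). Rrs1 had 30.6, 24.5 and 27.4 against 40.9, 22.3 and 22.6 CPM in the same order.

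Polyamine, methionine and pyrimidine genes held 2 of the 4 members that passed with the block, and the largest fold change of the 35. Srm, spermidine synthase, had 84.2, 21.5 and 44.0 CPM across the CD25-high libraries, against 27.7, 5.96 and 23.6 CPM across the CD25-low ones. CD25-high library 2 lay below 2 CD25-low libraries but above CD25-low library 2, which was the lowest of all. The log2 fold change was 1.39 ± 0.57 (edgeR adjusted p 0.407), with differences of 1.60, 1.84 and 0.90 within numbers 1, 2 and 3. With the block Srm rose at an adjusted p of 0.0033, and at 0.0439, 0.00427 and 0.000194 without pair 1, 2 or 3. Cad, the enzyme that opens pyrimidine synthesis, had 105, 57.7 and 80.7 CPM across the CD25-high libraries, against 38.01, 29.0 and 59.3 CPM across the CD25-low ones. CD25-high library 2 lay just below CD25-low library 3, which was the sole overlap. Its fold change was 0.95 ± 0.31 (adjusted p 0.281), with differences of 1.47, 0.99 and 0.44 within numbers. With the block Cad rose at an adjusted p of 0.0195, and it lost the call without pair 1 (0.0994).

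Odc1, ornithine decarboxylase, the rate-limiting enzyme of polyamine synthesis and a well known MYC target, did not share the direction of Srm. It had 107, 52.3 and 73.8 CPM across the CD25-high libraries, against 111, 52.1 and 76.6 CPM across the CD25-low ones. Its same-numbered libraries differed by -0.05, 0.01 and -0.05 (log2), the closest match of the 35 members, at a fold change of -0.04 ± 0.32. Reads of 12 pseudogenes similar to Odc1 cannot always be told from its own, but those with a row had 4.29% of its count. Mat2a, which makes the methyl donor S-adenosylmethionine, had 491, 232 and 317 against 304, 183 and 238 CPM in the same order, higher within every number (0.52 ± 0.29, edgeR adjusted p 0.558, and 0.088 with the block). Mat2a shares 508 exonic bases with Particl on the other strand.

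Within each replicate number, which the labels give to 1 library of each group, 30, 23 and 32 of the 35 members were higher in the CD25-high library for numbers 1, 2 and 3. The median differences were 0.60, 0.18 and 0.49 (log2), against 0.02, -0.01 and 0.01 over all tested genes. The direction was thus least uniform in number 2. In 18 of 35 members the CD25-high library was higher in all 3 numbers, against 20.4% of tested genes, and in 0 members it was lower in all 3, against 20.3%. The comparison of CD25-high with CD25-low cells shares all its libraries with these counts, so they are no separate evidence.

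**Figure D2:**
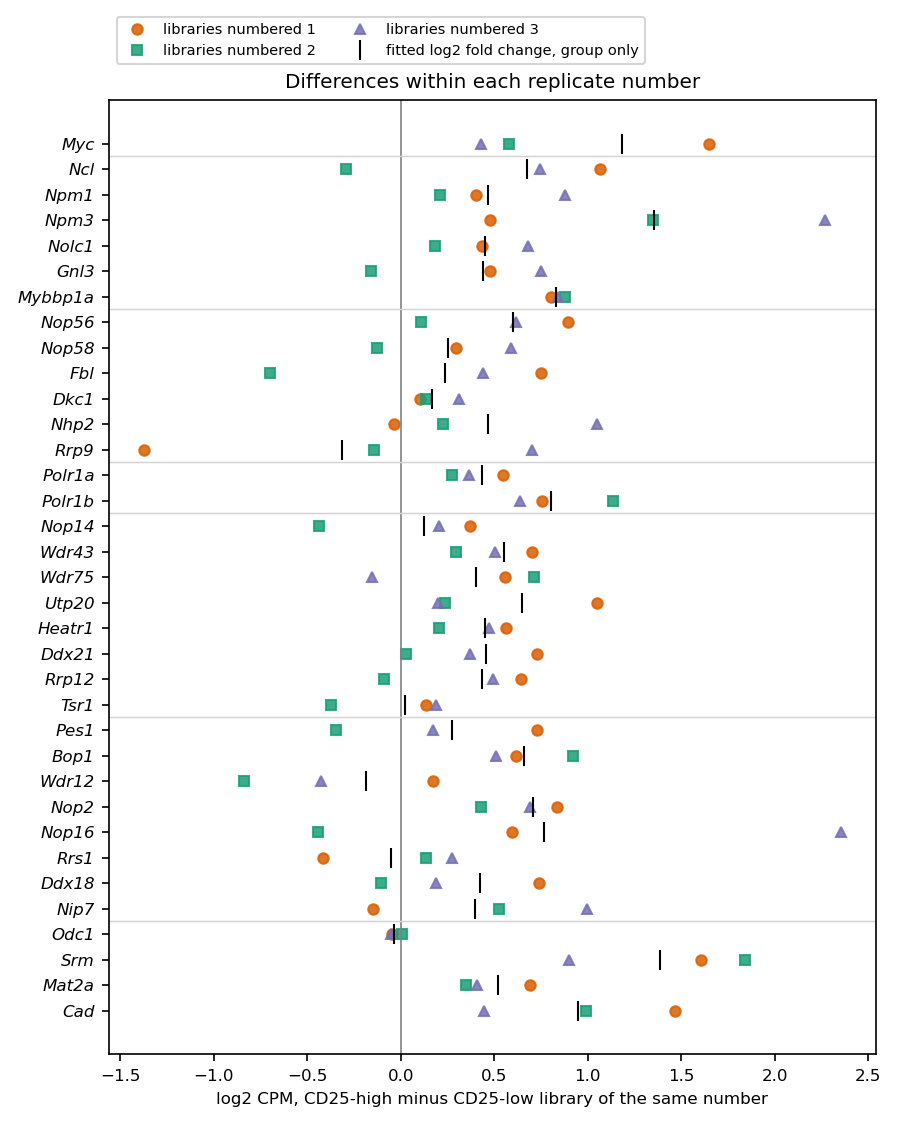
For each member, symbols give the log2 CPM of the CD25-high minus the CD25-low library with the same number, and the black mark gives the fitted log2 fold change by group alone. Most symbols lie to the right of 0, Mybbp1a has its 3 symbols close together, Odc1 lies at 0, and 12 members lie to the left of 0 in number 2.

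In most members the difference between replicate numbers was larger than that between CD25-high and CD25-low cells. In the fit with group and number, all 35 members had a higher level for number 1 than for numbers 2 and 3, against 49.3% of all tested genes. The median log2 difference was 0.86, against -0.01 over all tested genes, and it ran from 0.17 (Nhp2) to 1.68 (Myc). The median log2 fold change for CD25 in that fit was 0.42. In 28 of 35 members library 1 was above the other 2 of its group in both groups, against 19.2% of tested genes. CD25-high library 1 was the highest of the 6 libraries for 28 members (23.6% of tested genes), CD25-high library 3 for 4 and CD25-low library 1 for 3. CD25-low libraries 2 and 3 and CD25-high library 2 were the lowest for 18, 8 and 9 members. The summed level of the members was 14420, 4921 and 6488 CPM across the CD25-high libraries, against 8649, 4948 and 4169 CPM across the CD25-low ones, of which Ncl and Npm1 made up the larger part. No test was made of these differences, since the labels give no meaning to the numbers.

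The exceptions, with a larger CD25 difference than number difference in that fit, were 5 members, Cad, Nhp2, Npm3, Nop16 and Srm. Nhp2 and Cad differed least between numbers (0.17 and 0.26, log2), while Myc, Gnl3 (1.57) and Polr1b (1.57) differed most. Other measures moved with the number, and some of them with CD25 as well. Markers of B and plasma cells summed to 15.5 and 16.8 CPM in the libraries numbered 1 and to between 3.72 and 9.68 CPM in the other 4, with Cd79a, Ms4a1, Pax5 and Blk among those without a row. Markers of myeloid and dendritic cells summed to 27.6 and 12.9 CPM in the libraries numbered 1 and to between 35.2 and 89.1 CPM in the others. Itgam had 21.1 and 5.03 CPM in the libraries numbered 1 and between 26.3 and 77.2 CPM in the others, and Adgre1 and Cd14 had no row. Thy1, the gene of a sort marker, was low in the libraries numbered 1, at 97.8 CPM (CD25-high) and 54.0 CPM (CD25-low), against between 206 and 274 CPM in the others. Markers of CD8 T and NK cells summed to between 3.19 and 9.92 CPM, and those of red cells and platelets to between 2.07 and 4.10 CPM. T cell markers summed to between 3503 and 3590 CPM in CD25-high and between 3546 and 4596 CPM in CD25-low libraries. Of these markers Cd3d and Cd3g alone passed with the block (edgeR adjusted p 0.0134 and 0.0135). Both were lower in the CD25-high library within every number, as were Cd28, Cd2, Lck and Trac. Thy1 was higher within every number, and Cd3e, Cd4 and Cd5 were mixed in direction. Mitochondrial ribosomal RNA took 34.0% and 35.3% of counts in the libraries numbered 1 and between 29.3% and 33.1% in the others. Within every number the CD25-high library had the higher sum of myeloid and dendritic markers, at 27.6, 89.1 and 79.5 CPM against 12.9, 35.2 and 42.8 CPM. Itgam carried that difference, at 21.1, 77.2 and 71.6 CPM against 5.03, 26.3 and 32.1 CPM in the same order. It differed by 2.06, 1.55 and 1.15 (log2) within numbers, and rose with the block at an edgeR adjusted p of 0.0013. Cd68 was instead lower in the CD25-high library in numbers 1 and 3, and Csf1r in number 3. Itgax was higher within every number, at no more than 1.38 CPM. Markers of B and plasma cells (15.5, 4.69 and 3.72 against 16.8, 9.62 and 9.68 CPM) and the share of mitochondrial ribosomal RNA (34.0%, 32.1% and 29.3% against 35.3%, 33.1% and 31.7%) were lower in the CD25-high library within every number. The part of these measures in the results, those for CD25 included, was not tested. In bulk RNA, fewer cells that express a gene and less RNA per cell cannot be told apart.

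**Figure D3:**
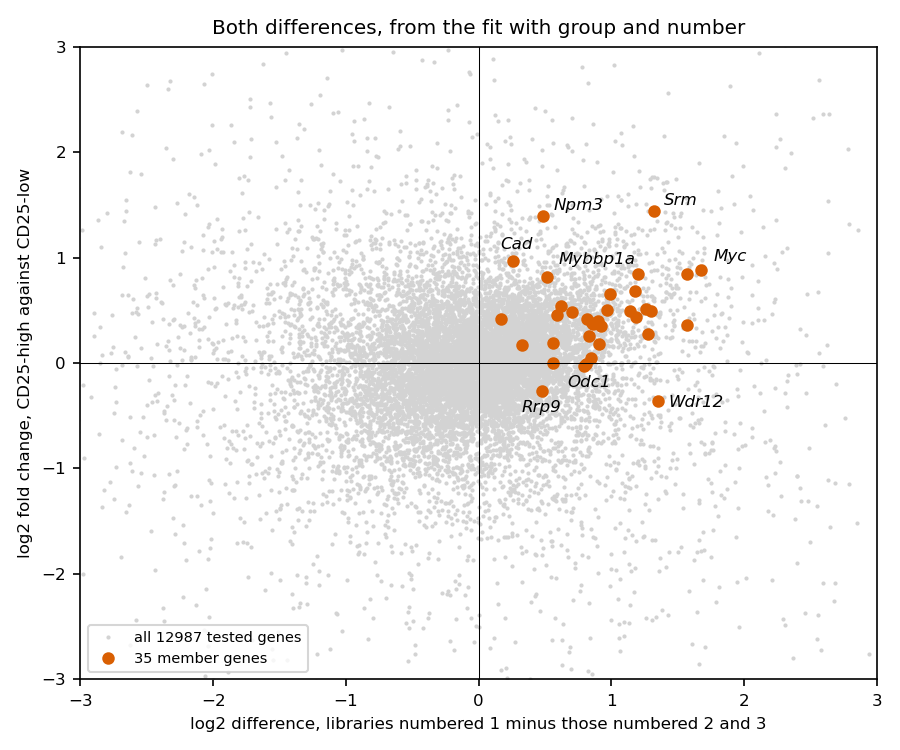
Each point is a gene, with its log2 difference between the libraries numbered 1 and those numbered 2 and 3 on the horizontal axis and its log2 fold change of CD25-high against CD25-low on the vertical axis, both from the fit with group and number. Orange points are the 35 members and grey points all 12987 tested genes, of which 263 lie outside the limits of 3 on the axes. All members lie to the right of 0, and 30 of them lie above 0 on the vertical axis.

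When libraries were not paired, the direction was lost if CD25-high library 1 alone was left out. That fit kept CD25-low library 1, which was also high for most members. Without CD25-high library 1 the median log2 fold change of the members was -0.02, with 16 above 0 and 19 below. Leaving out CD25-high library 2, or in turn CD25-low library 1, gave a median of 0.73 in each case, with 34 and 35 members above 0. Without both libraries numbered 1 the direction held, at a median of 0.37, with 29 members above 0. No member was called in any of these fits by group alone. With the block, 2, 6 and 4 members were called without pair 1, 2 or 3, all of them higher. Mybbp1a and Srm were called in each. Of all tested genes, 461 of 13420, 486 of 13105 and 536 of 13132 were called in either direction. Each of these fits kept 2 libraries per group, so its p-values rested largely on scatter estimated from other genes. These fits also share libraries, so calls that recur, those of Mybbp1a and Srm included, are no separate evidence.

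**Figure D4:**
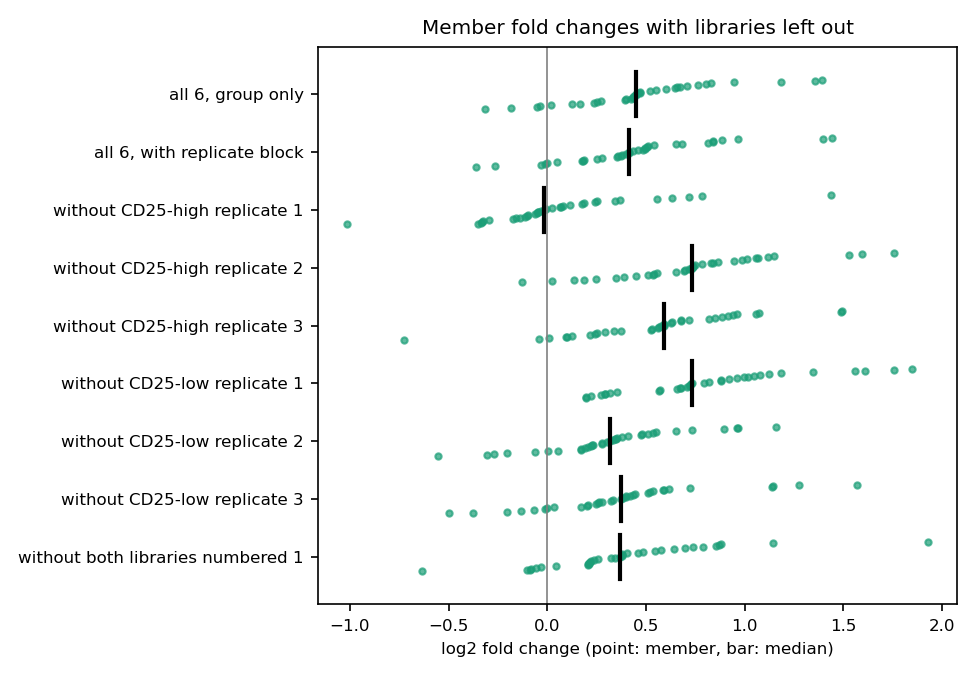
Each point is the log2 fold change of a member, and each black bar the median of the members, in the fit named at the left. The median lies at 0.45 with all 6 libraries, at -0.02 without CD25-high library 1 and at 0.73 without CD25-low library 1.

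Partners and rivals of MYC did not move as one group. Of 13 genes of the MYC network apart from Myc, 10 were tested, and edgeR called 0 of them by group alone (1 higher and 2 lower at an unadjusted p under 0.05), while 2 fell with the block, Mxd4 and Max. Max, the obligate partner of MYC, had 146, 113 and 156 CPM across the CD25-high libraries, against 252, 209 and 198 CPM across the CD25-low ones. All CD25-high libraries were below all CD25-low ones, as for 9.54% of tested genes, and the fold change was -0.67 ± 0.20 (log2; edgeR adjusted p 0.238, and 0.0322 with the block). Mxd4, which competes with MYC for MAX and represses its targets, had 0.06, 1.01 and 0.17 CPM across the CD25-high libraries, against 1.15, 12.6 and 10.01 CPM across the CD25-low ones. It was low in every CD25-high library and in CD25-low library 1 (-4.23 ± 1.05, adjusted p 0.13, and 0.00111 with the block).

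Mxi1, another MAX partner that represses, pointed the other way, with 22.7, 17.6 and 16.6 CPM across the CD25-high libraries, against 6.67, 12.6 and 8.85 CPM across the CD25-low ones. Its groups did not overlap, at a fold change of 1.01 ± 0.33 (edgeR adjusted p 0.272, and 0.0927 with the block). Mxd1 (-0.51 ± 0.27), Mxd3 (-0.10 ± 0.43) and the repressor Mnt (-0.16 ± 0.40) did not pass in either fit.

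**Figure D5:**
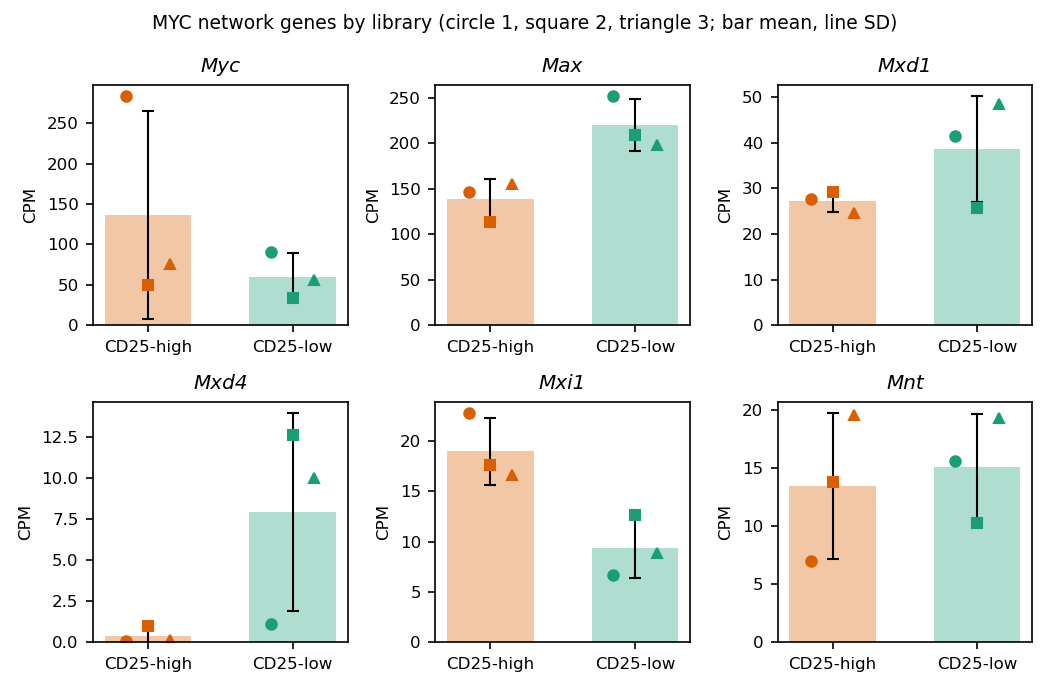
CPM of Myc, Max and 4 repressors that partner with MAX, for each library (circle number 1, square number 2, triangle number 3). Bars are group means and lines SD over 3 libraries. Max is lower and Mxi1 higher in every CD25-high library, and Myc has its highest library among CD25-high cells.

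Of the 159 other pathway genes listed, 156 had a row and 155 were tested. By group alone edgeR called 0 of them. DESeq2, which was run on all 156, called 5 (2 higher and 3 lower). Over all 15445 genes DESeq2 called 376 (116 higher and 260 lower). At an unadjusted p under 0.05 edgeR had 10 higher and 4 lower, against 4.69% and 6.39% of all tested genes. With the block 3 rose, Nat10, Noc2l and Urb2, and 3 fell, Max, Mxd4 and Smox, against 1.73% of all tested genes called higher and 2.9% lower, so these counts are near the background. The fold change was above 0 for 108 of the 155, against 50.8% of all tested genes. Its median was 0.20 (log2), against 0.01 over all tested genes and 0.45 over the members. In the libraries numbered 1, 122 of the 155 were higher than in the others, with a median difference of 0.38 (log2).

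Nat10, an RNA acetyltransferase of small-subunit assembly, had 93.4, 48.8 and 67.0 CPM across the CD25-high libraries, against 34.2, 28.4 and 38.4 CPM across the CD25-low ones. The groups did not overlap, and the log2 fold change was 1.05 ± 0.27 (edgeR adjusted p 0.145, and 0.0124 with the block). Noc2l, of large-subunit assembly, had 119, 67.0 and 81.3 against 47.3, 52.8 and 40.3 CPM in the same order (0.93 ± 0.25, 0.176, and 0.027 with the block). Urb2, of the same role, had 149 ± 33.4 against 90.5 ± 18.7 CPM (SD, n = 3 each; 0.72 ± 0.24, edgeR adjusted p 0.294, and 0.0249 with the block). Tbl3, of the processome, had 1.09 ± 0.35 and did not pass in either fit (adjusted p 0.265 and 0.0609).

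Other genes named by the smallest p in their role were the polymerase I factors Tcof1 (0.48 ± 0.23) and Taf1d (0.66 ± 0.38) and the snoRNP assembly factors Pih1d1 (-0.70 ± 0.36) and Znhit3 (0.61 ± 0.33), none of which passed. Among polyamine and pyrimidine genes Uck2, a uridine kinase, had 73.5 ± 21.8 against 43.3 ± 7.24 CPM (SD, n = 3 each; 0.76 ± 0.26, edgeR adjusted p 0.307). Sat1, which breaks polyamines down by acetylation, had 12.1 ± 0.87 against 24.6 ± 5.24 CPM (-1.02 ± 0.27, adjusted p 0.168, and 0.0581 with the block). Smox, the spermine oxidase that also breaks polyamines down, was chosen after its values were seen. It had 1.93, 1.97 and 1.81 CPM across the CD25-high libraries, against 6.24, 8.47 and 5.83 CPM across the CD25-low ones (-1.85 ± 0.43, edgeR adjusted p 0.117, and 0.035 with the block). Sat1 and Smox differed little between the libraries numbered 1 and the others (-0.14 and -0.08, log2).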

How the data were processed

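RNA-seq of 6 libraries (3 CD25-high, 3 CD25-low) was analysed from the deposited table, which holds raw counts, whole numbers of reads per Ensembl gene and library, with a smallest row total of 10. Per the labels' protocols, total RNA went into NuGEN Ovation RNA-Seq System v2 libraries. Per the submitters' processing notes, Novoalign, DESeq2, mm10 and hg19 were used, without roles or versions. The counting tool, its annotation and its use of strand are not stated in the sources at hand, so reads of overlapping genes on opposite strands cannot be told apart. GENCODE M21 named 15169 of 15445 genes. Level per kilobase used the longest APPRIS principal transcript or all exonic bases.

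Differences were tested with edgeR 4.0.16 in R 4.3.3 (quasi-likelihood F test, TMM factors, filterByExpr with minimum count 10 and total 15, group as the only term), Benjamini-Hochberg adjusted over 12987 genes and called below 0.05. SE was taken as the size of a log2 fold change divided by the root of its F statistic. Per-library differences used log2 CPM with a prior count of 0.5. The fits were tested on simulated data that held no difference between numbers, so that check does not speak to such differences. Libraries with the same number deviated together from their groups (r = 0.29, 0.15 and 0.13 across the 2000 genes that deviated most, all above 0.1, against -0.21 to 0.11 for other pairs), so the numbers were used as pairs. This pairing rests on the data, as no label states it. It is weak for numbers 2 and 3, since CD25-high library 2 with CD25-low library 3 also had an r of 0.11. Within groups, every 2 libraries differed beyond counting noise (chi-square over its degrees of freedom 26 to 91.6).

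The members and lists were chosen with earlier results of these data known. Named are all members, Il2ra, and of the other pathway genes the 2 with the smallest p per role with a mean CPM of at least 5, the MAX partners given, and any called in the fit by group alone. Values of every library for Mybbp1a, Npm3, Bop1, Wdr12 and Smox were added after their values were seen. Near copies are pseudogenes with 90% identity over 300 bases. Alternatives were DESeq2 1.42.0, limma voom (3.58.1), RLE, upper-quartile and library-size scaling, no and stricter filters (mean count of 10, CPM of 1 in 3 libraries), thinned counts, removal of the 50 most abundant and mitochondrial genes, the block, and each library left out.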

Additional observations from a re-analysis of the deposited data

How the results depend on the processing

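Scaling, filters, thinning and removal of abundant genes changed no direction of a member and no call among members, of which 34 were tested under the stricter filter and 33 without the abundant genes. DESeq2 called 376 genes and 5 other pathway genes, against 85 and 0 by group alone. With the replicate block 601 genes, 4 members and 6 other pathway genes were called, and it changed no other call among members. Settings chosen after seeing the data were the fit without both libraries numbered 1, with 380 genes and 3 other pathway genes called, and the block without pair 1, 2 or 3, with 461, 486 and 536 genes, 2, 6 and 4 members and 3, 4 and 6 other pathway genes. Leaving out single libraries gave 22 to 130 genes, 0 members, 0 other pathway genes and a member median of -0.017 to 0.73 (log2).

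Members that changed sign were never called in those fits. Over single libraries left out, log2 fold changes ran from -0.12 to 1.01 for Ncl, -0.061 to 1.08 for Npm1, -0.048 to 0.96 for Nolc1, -0.30 to 1.12 for Gnl3, -0.10 to 0.57 for Nop58, -0.046 to 0.51 for Fbl and -0.17 to 0.56 for Dkc1. They ran from -0.73 to 0.22 for Rrp9, -0.33 to 0.39 for Nop14, -0.017 to 0.67 for Wdr75, -0.054 to 0.94 for Utp20, -0.0057 to 0.72 for Ddx21, -0.032 to 0.73 for Rrp12 and -0.35 to 0.29 for Tsr1. They ran from -0.10 to 0.54 for Pes1, -1.01 to 0.20 for Wdr12, -0.21 to 0.29 for Rrs1, -0.33 to 0.80 for Ddx18 and -0.34 to 0.27 for Odc1. With limma voom Tsr1 had -0.0072 and Rrs1 0.022, and with the block Tsr1 had -0.014. Without both libraries numbered 1 the values were -0.089 for Fbl, 0.37 for Rrp9, -0.10 for Nop14, -0.085 for Tsr1, -0.060 for Pes1 and 0.21 for Rrs1. With the block and without pair 1 they were -0.13 for Fbl, 0.29 for Rrp9, -0.12 for Nop14, -0.093 for Tsr1, -0.088 for Pes1 and 0.20 for Rrs1, and without pair 3 they were -0.027 for Nop14 and -0.11 for Tsr1. The cause was not tested. Depth limits Npm3, Fbl and Rrp9, which had 96, 225 and 692 reads over the 6 libraries.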
